A study of Danio rerio with 6 samples.

Results

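The 7 genes described here form the interleukin 7 receptor signalling chain of the zebrafish, and were chosen by name as the ligand, the receptor chains and the first signalling steps. They are the cytokine gene il7 (ENSDARG00000092045), the receptor genes il7r (ENSDARG00000078970), il2rga (ENSDARG00000068858) and crlf2 (ENSDARG00000090632), the kinase gene jak3 (ENSDARG00000010252) and the transcription factor genes stat5a (ENSDARG00000019392) and stat5b (ENSDARG00000055588). All 7 were found among the 32267 features measured, and all 7 were among the 20782 features that were fitted because their normalized counts averaged 10 or more. The study asked what part il7 plays in lymphocyte development. It sequenced total RNA of unfractionated whole kidney marrow, where blood cells form in adult fish, from 2 groups of 3 libraries. Fish of the il7 mutant group carry an internal deletion that removes exons 2 to 4 of il7, and control fish are wild type at il7. Both groups have the TLEK background. The labels do not state the age or sex of the fish, whether the mutants are homozygous, or the number of fish per library, so every p-value refers to the spread between these libraries, which may be technical.

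Interleukin 7 is a cytokine which, in mammals, stromal cells release and lymphocyte precursors need for survival and growth. It binds the interleukin 7 receptor alpha chain, which il7r encodes, and this chain pairs with the common gamma chain, whose zebrafish genes are il2rga and its paralogue il2rgb. In mammals JAK1 sits on the alpha chain and JAK3 on the gamma chain, and together they phosphorylate STAT5, which then enters the nucleus and switches on targets such as CISH. The mammalian counterpart of crlf2 encodes a receptor chain that pairs with the interleukin 7 receptor alpha chain to bind the related cytokine TSLP.

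In these libraries il7, il2rga and crlf2 had lower values in all 3 il7 mutant libraries than in all 3 control libraries, while the other 4 genes overlapped between the groups. For il7 the mutant mean was 18.3% of the control mean, for crlf2 it was 31.4% and for il2rga 66.6%. For jak3, stat5a and stat5b it was 75.2%, 79.7% and 92.4%, and for il7r 111%. None of the 7 genes passed limma's moderated test at a Benjamini-Hochberg adjusted p of 0.05 over all genes fitted, and neither did any other gene, so the background is 0%. An unadjusted limma p under 0.05 was found for 2 of the 7, il7 and crlf2, against 3.48% of all genes fitted. All mutant values lay below all control values in 3 of the 7 (42.9%), against 4.44% of all genes fitted, and in the other direction in 0 of the 7, against 3.51%. The log2 change was negative in 6 of the 7, with a median of −0.42, against a median of −0.04 over all genes fitted, of which 54.1% were negative. Each of these counts includes il7, whose own exons are deleted, so its lower values say nothing about the other genes. The counts of unadjusted p under 0.05 and of lower mutant values also include crlf2, which averaged 5.55 normalized counts in mutants and 17.7 in controls. Its mutant mean alone was below the filter on mean normalized counts, so crlf2 was fitted because of its control values. Neither count was repeated without il7 or crlf2. Without il7 the median was −0.40. The separation of il2rga was lost with quantile normalization and with rescaling to the same total.

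**Figure D1:**
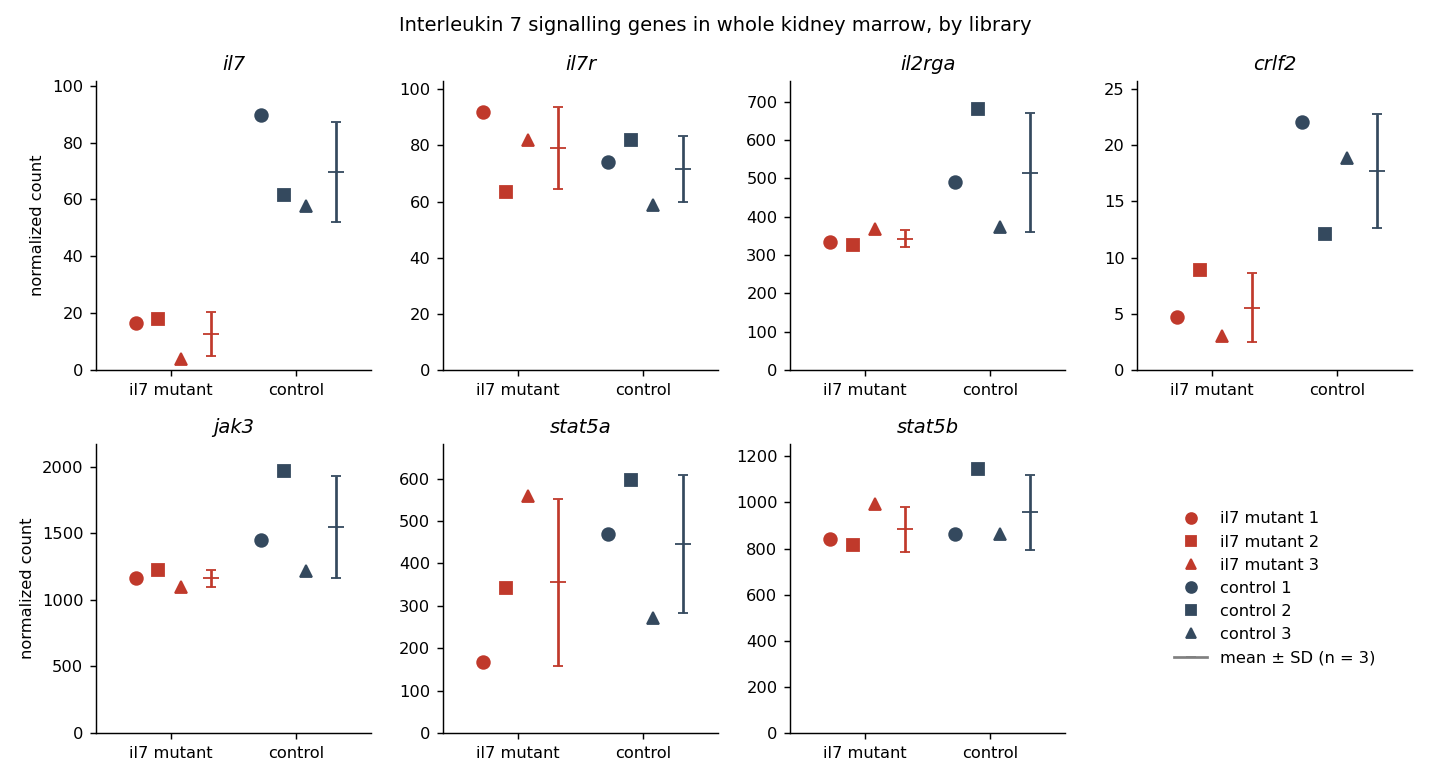
Normalized count (vertical axes, linear from 0) of the 7 genes in each library, with il7 mutant libraries on the left and control libraries on the right of each panel; bars give the mean ± SD of 3 libraries. The il7 groups are 39.8 normalized counts apart at their nearest values, the il2rga groups 6.21 and the crlf2 groups 3.20, and the il7r, jak3, stat5a and stat5b groups overlap.

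The ligand gene il7, which carries the deletion, had 16.5, 17.8 and 4.00 normalized counts in il7 mutants 1, 2 and 3, against 89.8, 61.6 and 57.7 in controls 1, 2 and 3. The mutant libraries held 14, 18 and 4 reads of il7, against 114, 61 and 52 reads in the control libraries. The highest mutant value was 39.8 normalized counts below the lowest control value, and il7 mutant 3 was the lowest library. The mean was 12.8 ± 7.64 in mutants and 69.7 ± 17.5 in controls (SD, n = 3 each). The log2 change of normalized count + 1 was −2.55 (limma, SE 0.66), with a 95% interval of −4.13 to −0.97. Its unadjusted limma p was 0.00703, a value undercut by 0.626% of the genes fitted, and its adjusted p was 1.00. The two-sided exact permutation test gave p = 0.1, which is the smallest value that 3 against 3 libraries allow. In the authors' deposited table il7 was the only gene of the 7 with an adjusted p under 0.05, at 0.0403, where 0.521% of all genes with an adjusted p passed. The files count reads per gene, so they do not say from which exons the remaining reads came.

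The receptor gene il7r, whose product is the chain that binds interleukin 7, had 91.9, 63.5 and 81.9 normalized counts in il7 mutants 1, 2 and 3, against 74.0, 81.8 and 58.8 in controls 1, 2 and 3. The groups overlapped fully, with the highest value in a mutant library and the lowest in a control library. Its log2 change was 0.14 (limma, SE 0.36), with a 95% interval of −0.73 to 1.01. The interval therefore takes in mutant levels from 0.604 to 2.01 times the control level. The observed SD was 14.5 in mutants, where counting of reads alone gives 9.19, and 11.7 in controls, where it gives 8.29. With 3 libraries per group these SDs are imprecise, and the difference from counting was not tested.

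The gamma chain gene il2rga had 335, 326 and 368 normalized counts in il7 mutants 1, 2 and 3, against 492, 680.0 and 374 in controls 1, 2 and 3. The mutant libraries lay close together, while the controls were spread out and control 3 lay just above the mutants. The mean was 343 ± 21.9 in mutants and 515 ± 154 in controls (SD, n = 3 each). The mutant SD was near the 19.0 that counting of reads gives, and the control SD was far above its counting value of 22.3. The log2 change was −0.54 (limma, SE 0.29), with a 95% interval of −1.24 to 0.15 and an unadjusted p of 0.107. Without control 2, the log2 change was −0.32. The separation of the groups depended on the scaling. When each library was rescaled to the same total, il2rga spanned 322 to 367 in mutants and 339 to 667 in controls, so the groups overlapped, and they also overlapped after quantile normalization. The paralogue il2rgb, named here after its values were seen, had 71.9, 71.4 and 65.9 normalized counts in mutants, against 55.1, 101 and 109.8 in controls, with a log2 change of −0.28 (limma, SE 0.40). The sequences of il2rga and il2rgb were not compared, and how the authors' counting treated any reads matching both genes is not stated. The same holds for stat5a and stat5b.

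The receptor gene crlf2 had few reads, with 4, 9 and 3 reads in il7 mutants 1, 2 and 3 and 28, 12 and 17 reads in controls 1, 2 and 3. These reads correspond to 4.72, 8.92 and 3.00 normalized counts in mutants, against 22.1, 12.1 and 18.9 in controls. The groups did not overlap, but il7 mutant 2 and control 2 were only 3.20 normalized counts apart. At this depth counting alone gives an SD of 2.41 in mutants and 4.10 in controls, close to the observed SDs of 3.05 in mutants and 5.07 in controls (n = 3 each). The log2 change was −1.58 (limma, SE 0.64), with a 95% interval of −3.11 to −0.04 and an unadjusted p of 0.0459. This limma p was 0.053 with robust variance and 0.123 without il7 mutant 3, so it did not stay under 0.05. The exact permutation test gave p = 0.1, again the smallest possible. In the authors' deposited table crlf2 had a log2 fold change of −1.67 (−0.94 after shrinkage) and did not pass the adjusted p threshold.

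The kinase gene jak3 had 1162, 1227 and 1099 normalized counts in il7 mutants 1, 2 and 3, against 1451, 1968 and 1217 in controls 1, 2 and 3. As for il2rga, the mutants lay close together, control 2 was the highest library and control 3 was near the mutants, just below the highest of them. The mean was 1163 ± 63.8 in mutants and 1545 ± 384 in controls (SD, n = 3 each). The log2 change was −0.38 (limma, SE 0.24), with a 95% interval of −0.96 to 0.19, and −0.19 without control 2. After quantile normalization all mutant values of jak3 lay below all control values, so its overlap also depended on the scaling.

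The transcription factor gene stat5a had 166, 341 and 558 normalized counts in il7 mutants 1, 2 and 3, against 469, 596 and 272 in controls 1, 2 and 3. It varied widely in both groups, with an SD of 197 in mutants, where counting gives 19.1, and 163 in controls, where it gives 20.6. Its log2 change was −0.42 (limma, SE 0.52), with a 95% interval of −1.68 to 0.84, and turned to 0.043 without il7 mutant 1. The related gene stat5b had 842, 814 and 995 normalized counts in mutants, against 865, 1144 and 861 in controls, so all but control 2 lay within a narrow range. Its log2 change was −0.11 (limma, SE 0.22), with a 95% interval of −0.64 to 0.43, and turned to 0.029 without control 2.

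**Figure D2:**
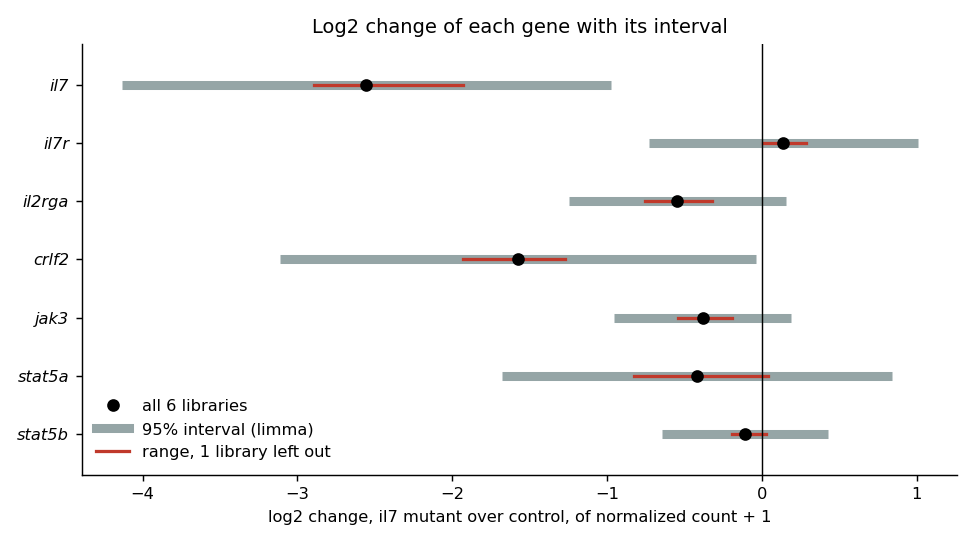
Log2 change of normalized count + 1, il7 mutant over control (horizontal axis), for each of the 7 genes; points use all 6 libraries, grey bars are limma's 95% intervals and red lines span the values with 1 library left out. The intervals of il7 and crlf2 lie below 0, at −4.13 to −0.97 and −3.11 to −0.04, while those of the other 5 genes include 0.

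A ratio of 2 genes within a library does not depend on scaling by a single factor per library. Quantile normalization is not such a scaling and can change the ratio. Of 5 ratios, chosen after the values were seen, il2rga over il7r was 3.64, 5.14 and 4.49 in il7 mutants 1, 2 and 3, against 6.64, 8.31 and 6.36 in controls 1, 2 and 3. These groups did not overlap, and the mean ratio was 4.42 ± 0.752 in mutants and 7.10 ± 1.05 in controls (SD, n = 3 each). The exact two-sided permutation test gave p = 0.1, the smallest possible, and 0.167 after adjustment over the 5 ratios. This adjustment does not cover the choice of the ratios. Those over il7r share their denominator, and il7 carries the deletion, so they are not separate results. The ratio of il7 to il7r was 0.179, 0.281 and 0.0488 in mutants, against 1.21, 0.753 and 0.981 in controls, without overlap. The ratio of crlf2 to il7r was 0.0513, 0.141 and 0.0366 in mutants, against 0.298, 0.148 and 0.321 in controls, with il7 mutant 2 and control 2 nearly level. In contrast, il2rga over jak3 was steady, at 0.288, 0.266 and 0.335 in mutants and 0.339, 0.345 and 0.307 in controls, with overlapping groups (exact permutation p = 0.2). The ratio of stat5a to stat5b was 0.197, 0.419 and 0.561 in mutants and 0.543, 0.521 and 0.316 in controls. Its highest value was 2.84 times its lowest, and both were mutant libraries.

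**Figure D3:**
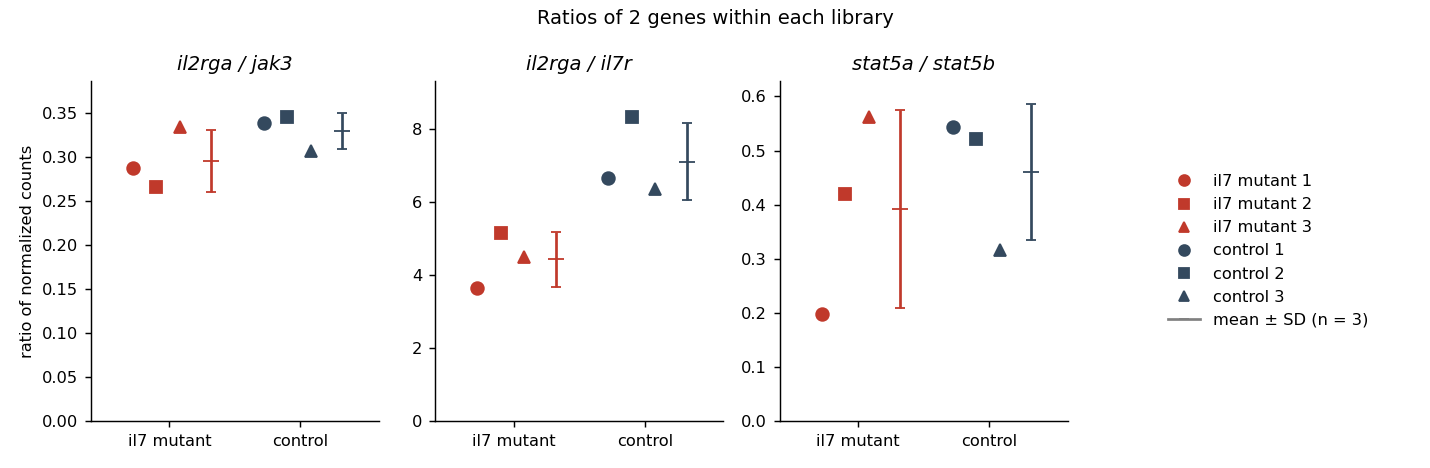
Ratio of the normalized counts of 2 genes within each library (vertical axes, linear from 0), with il7 mutant libraries on the left and control libraries on the right; bars give the mean ± SD of 3 libraries. The ratio of il2rga to il7r is at most 5.14 in mutants and at least 6.36 in controls, while the other 2 ratios overlap.

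Over the 6 libraries, il2rga and jak3 had the highest Pearson r among the 15 pairs of the 6 genes other than il7, at 0.9502 (exact permutation p = 0.0236, adjusted p = 0.313 over the 15 pairs). Spearman's rho of this pair was 0.600 (exact permutation p = 0.242, adjusted p = 0.518). Without the 2 libraries farthest from the il2rga median the r was −0.34, so the relation rested on those libraries. The pair il2rga and stat5b had an r of 0.776 and a rho of 0.829 (exact permutation p = 0.0417 and 0.0583, adjusted p = 0.313 and 0.438), and an r of 0.672 without the 2 libraries farthest from the median. No pair passed the adjustment.

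Genes with the most similar pattern were sought by Pearson r of log2(normalized count + 1) over the same 6 libraries, which share depth and tissue make-up. With so few libraries, between 12 and 77 genes reached an r of 0.95 with each of the 7. The closest named genes were CLDN23 (r = 0.995) and NCOA2 (r = 0.985) for il7, and KCTD15 (r = 0.979) and CRYBB3 (r = 0.977) for il7r. For il2rga they were FAM20A (r = 0.989) and hpcal4 (r = 0.988), and for crlf2 ANO10 (r = 0.984) and PTGIS (r = 0.982). Close to jak3 was the heat shock gene HSPH1 (r = 0.998). For stat5a they were fynb (r = 0.994), a SRC family kinase gene, and SKIL (r = 0.993), and for stat5b FOXN2 (r = 0.987) and DNAJC5 (r = 0.985).

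Around the 7 genes, 114 other fitted genes of the interleukin 7 pathway in 8 groups were listed with earlier results of these data known. Of these, 61 had a negative and 53 a positive log2 change, with a median of −0.03, and 0 passed the limma test over all genes or had an adjusted p under 0.05 in the authors' deposited table. An unadjusted limma p under 0.05 was found for 5 of the 114 (4.39%), all lower in mutants. All mutant values lay below all controls in 7 (6.14%), and above them in 4 (3.51%), near the shares for all genes fitted.

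**Figure D4:**
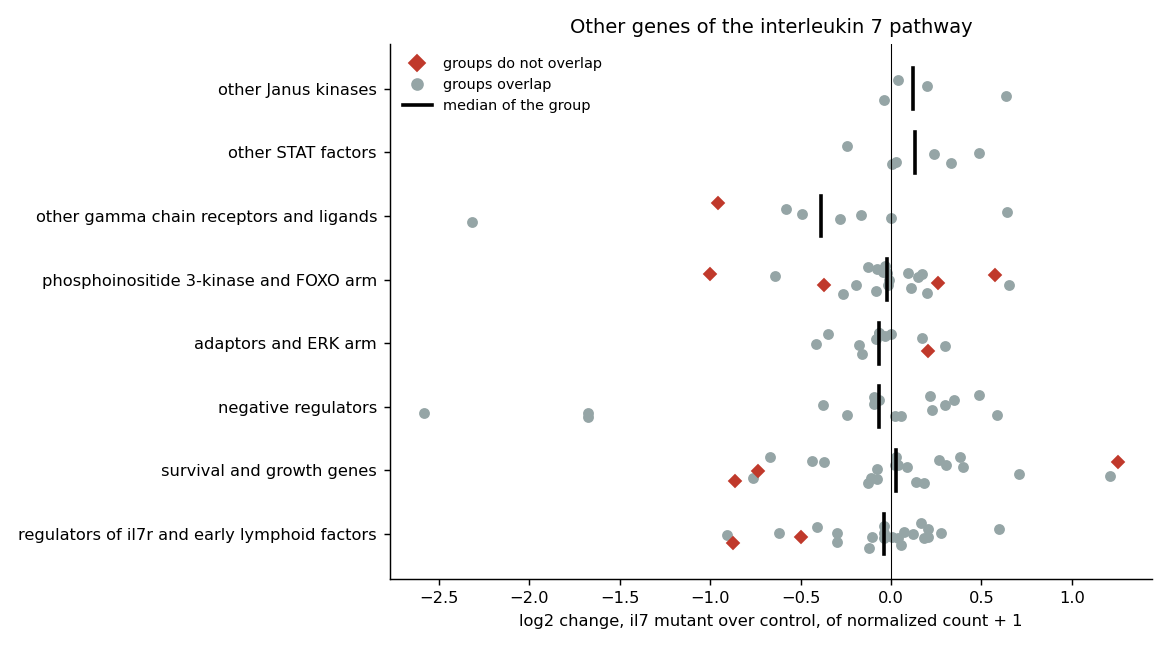
Log2 change of normalized count + 1, il7 mutant over control (horizontal axis), of 114 other pathway genes in 8 groups; red diamonds are genes whose 3 mutant and 3 control values do not overlap, grey points are genes whose groups overlap and black lines are the medians. The medians lie between −0.39, for the other gamma chain receptors and ligands, and 0.13, for the other STAT factors.

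The groups of the other kinases and STAT factors overlapped. JAK1, the kinase that sits on the alpha chain in mammals and was named here after its values were seen, had 6078, 5130.2 and 5711 normalized counts in il7 mutants 1, 2 and 3, against 4678, 6808 and 6075 in controls. Its log2 change was −0.04 (limma, SE 0.21). In the group of 4 other Janus kinase genes 3 were positive, with jak2a at 0.64 (SE 0.46) and TYK2 at 0.20 (SE 0.45), and TYK2 turned negative, at −0.22, without il7 mutant 3. Of 6 other STAT genes 5 were positive, with stat2 at 0.48 (SE 0.31) and stat6 at 0.33 (SE 0.34). None of these 10 genes had groups that did not overlap.

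Of 8 fitted genes for other gamma chain receptors and ligands 6 were negative, with a median log2 change of −0.39. The cytokine gene il15, whose product signals through the gamma chain as well, had 453, 267 and 406 normalized counts in il7 mutants 1, 2 and 3, against 648, 669.9 and 832 in controls 1, 2 and 3. Its groups did not overlap, and its log2 change was −0.96 (limma, SE 0.29), with an unadjusted p of 0.0138 and an adjusted p of 1.00. The receptor gene il4r.1 had a log2 change of −0.58 (SE 0.40) and overlapping groups. The listed genes il21r.2 and il4 were not fitted, since their mean normalized counts were below 10.

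Negative regulators numbered 17, of which 9 were negative. CISH, SOCS1 and SOCS2 are feedback inhibitors that STAT5 induces in mammals, and CISH and SOCS2 are named here because of their values. CISH had 363, 3640 and 564 normalized counts in il7 mutants 1, 2 and 3, against 3078, 2766 and 2869 in controls 1, 2 and 3. SOCS1 had 204, 2550 and 382 in the mutants, against 1929, 3350 and 6609 in the controls, and SOCS2 had 183, 1828 and 158 in the mutants, against 449.8, 2790 and 1386 in the controls. In all 3 genes il7 mutants 1 and 3 were below every control, while il7 mutant 2 lay within the control range for SOCS1 and SOCS2 and above it for CISH. The related genes of the same list differed from this: cishb had 244, 217 and 251 in the mutants, against 166, 375 and 256 in the controls, with a log2 change of −0.09, and socs1b and the fitted SOCS3 had log2 changes of 0.22 and 0.30, all with overlapping groups. The log2 changes were −1.68 (limma, SE 0.82) for CISH, −2.58 (SE 0.97) for SOCS1 and −1.68 (SE 1.099) for SOCS2, and none passed adjustment. Without il7 mutant 2 they were −2.68 for CISH, −3.64 for SOCS1 and −2.82 for SOCS2, and over all single libraries left out they ranged from −2.68 to −1.02, from −3.64 to −1.82 and from −2.82 to −1.05. Both il7 mutant 2 and control 1 were rich in oocyte transcripts. Control 1 was the highest control for CISH but the lowest for SOCS1 and SOCS2. The part of oocyte transcripts in these values was not tested. Over the same mutants, stat5a was lowest in il7 mutant 1 and highest in il7 mutant 3, and stat5b had 842, 814 and 995 normalized counts in il7 mutants 1, 2 and 3. The relation of either gene to CISH, SOCS1 and SOCS2 was not tested. The ubiquitin ligase gene CBLB had a log2 change of 0.59 (SE 0.28) with overlapping groups.

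In the phosphoinositide 3-kinase and FOXO arm 13 of 21 genes were negative, with a median log2 change of −0.02. All mutant values lay below all controls in 2 (9.52%) and above them in 2 (9.52%), against 4.44% and 3.51% of all genes fitted. PIK3R1, a regulatory subunit of the kinase, had 4104, 5024 and 7862 normalized counts in il7 mutants, against 8312, 10194.5 and 15393 in controls, without overlap. Its log2 change was −1.003 (limma, SE 0.34), with an unadjusted p of 0.0237. Of the other regulatory subunit genes listed, PIK3R5 was also lower without overlap, at −0.37. The groups of pik3r2, pik3r3a and PIK3R3 overlapped, with log2 changes of −0.19, −0.26 and −0.04. Among 12 adaptor and ERK arm genes, the named SHC1 and PTK2B (ENSDARG00000022841) had log2 changes of 0.20 (SE 0.18) and 0.30 (SE 0.25).

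The 23 survival and growth genes had a median log2 change of 0.03, with 10 negative. MYC (ENSDARG00000007241), which drives cell growth, had 1560, 1377 and 1071 normalized counts in il7 mutants 1, 2 and 3, against 2329, 2337 and 1961 in controls 1, 2 and 3. The groups did not overlap, and the log2 change was −0.74 (limma, SE 0.22), with an unadjusted p of 0.0138 and an adjusted p of 1.00. PIM1, a survival kinase that STAT5 induces in mammals, had 2269, 4147 and 4834 in mutants, against 6936, 5335 and 7388 in controls, and a log2 change of −0.86 (SE 0.33). The death-promoting gene bcl2l11, named after its values were seen, had 50.7, 41.6 and 74.9 in mutants, against 12.6, 36.4 and 23.3 in controls, and a log2 change of 1.25 (SE 0.55). These 3 were the only ones of the 23 with groups that did not overlap, 2 lower (8.70%) and 1 higher (4.35%). The shares of all genes fitted were 4.44% and 3.51%. MYC and PIM1 are named for having the smallest p of this group. Relatives in the same list had overlapping groups, with pim2 at 1.21 (SE 0.58) and the MYC feature ENSDARG00000045695 at −0.43 (SE 0.41). Other death-promoting genes listed went both ways, with overlapping groups. The log2 changes of bbc3, BAX and bmf1 were −0.13, −0.08 and −0.76, and those of bada, badb and bmf2 were 0.705, 0.14 and 0.26. Regulators of il7r and early lymphoid factors numbered 23, of which 12 were negative. RUNX3 and IRF8, named for the smallest p, had log2 changes of −0.88 (SE 0.41) and −0.50 (SE 0.22), both without overlap. They were the only separated genes of that group (8.70% lower and 0% higher).

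Depth was 34496353 to 46120889 gene reads per library, and markers of lymphocytes, neutrophils, red cells and kidney tubule were found, although klf1 of the erythroid list and atp1a1a.4 of the tubule list were at 0 in all 6 libraries. In bulk samples like these, fewer cells of a type and less RNA per cell cannot be told apart. The summed normalized counts of 17 T cell markers were 2516 to 3266 in il7 mutants and 2465 to 3353 in controls, and those of 15 B cell markers were 11554 to 15805 in mutants and 12341 to 18998 in controls. GATA3, lcp2a and TOX made up much of the T cell sum. Likewise ighm, SYK, BTK and SWAP70 (ENSDARG00000057286) made up much of the B cell sum, so both sums mostly follow these genes. Of the fitted markers 12 of 15 T cell genes and 12 of 15 B cell genes were negative, with medians of −0.19 and −0.20. All mutant values lay below all controls in 3 of these T cell genes and above them in 1. Among the B cell genes, 0 were separated in either direction. Of all genes fitted, 4.44% were separated with mutants lower and 3.51% with mutants higher. The 15 natural killer and cytotoxic markers summed to 1500 to 2145 in mutants and 1858 to 3972 in controls. Among these, 10 of 13 fitted genes were negative, with a median of −0.64. All mutant values lay below the controls in 4 of the 13, against 4.44% of all genes fitted, and above them in 0. One feature of this list, EOMES, had 1185 normalized counts in il7 mutant 2 and 1778 in control 1, the libraries rich in oocyte transcripts, and at most 437 elsewhere. The 13 liver markers summed to 7377 to 30354 in mutants and 1410.03 to 17544 in controls, with 1 negative and a median log2 change of 3.04, and of 9 fitted erythroid markers 0 were negative, with a median of 0.74. All mutant values lay above the controls in 3 liver genes and 0 erythroid genes, against 3.51% of all genes fitted. The 11 muscle markers summed to 177504 in il7 mutant 1 and 91259 in control 3, against at most 20944 elsewhere. Within their groups, il7 mutant 1 and control 3 were also the lowest for stat5a. The part of these lists in the il2rga, crlf2, jak3 and stat5a values was not tested. The T cell gene cd8a was low and its groups overlapped, at 2.36, 0.992 and 4.995 in mutants and 20.5, 8.08 and 1.11 in controls.

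**Figure D5:**
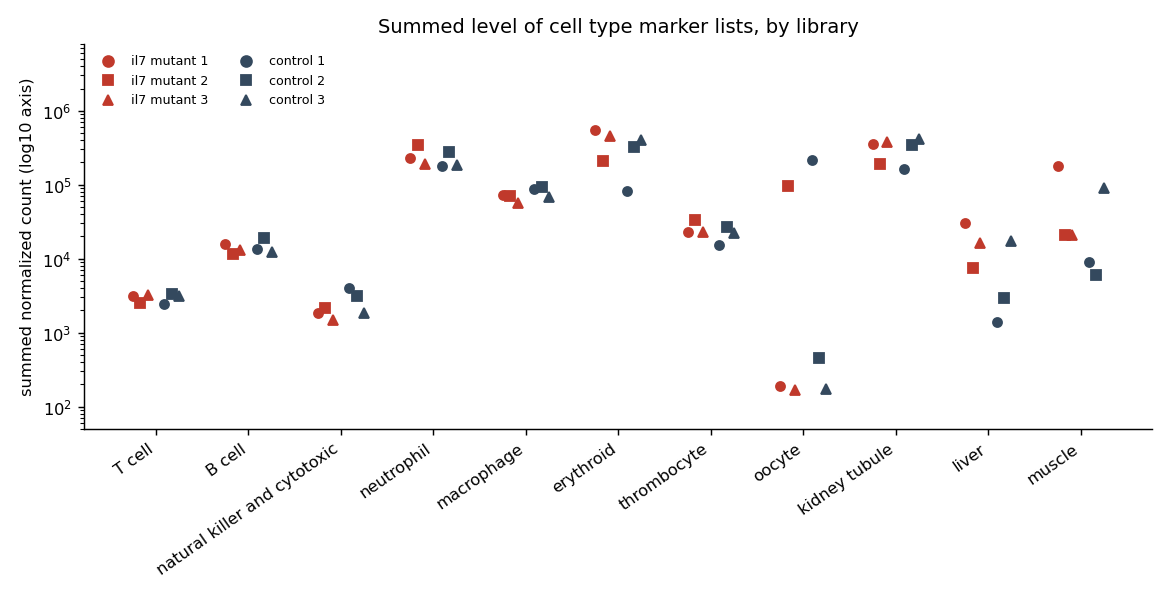
Summed normalized count (vertical axis, log10) of 11 lists of cell type markers in each library, with il7 mutant libraries on the left and control libraries on the right of each list. The oocyte list splits the libraries, with 97505 in il7 mutant 2 and 212768 in control 1 and at most 449.7 elsewhere, while the T cell and B cell sums of the groups overlap.

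Summed oocyte markers were 97505 in il7 mutant 2 and 212768 in control 1, against 166 to 449.7 in the other 4 libraries, so each group holds 1 such library. Within that pair the mutant minus control difference on the log2(normalized count + 1) scale was −2.27 for il7, −0.59 for il2rga, −1.22 for crlf2 and −0.24 for jak3. Between the means of the other 4 libraries it was −2.70 for il7, −0.52 for il2rga, −1.76 for crlf2 and −0.45 for jak3. For stat5a it was −0.46 in the pair and −0.40 in the other 4, and for stat5b −0.09 and −0.12. Of the 7 genes only il7r changed sign, at −0.22 in the pair and 0.32 in the other 4. The pair sets 1 library against 1, and the part of oocyte transcripts in these values was not tested.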

How the data were processed

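Libraries were stranded and depleted of ribosomal RNA, per the labels' protocols. Tools listed in the submitters' processing notes, without their roles, are DESeq2 1.14.1, featureCounts 1.5.2, STAR 2.5.3a and bcl2fastq 2.17.1.14, and the build listed is GRCz10. The deposited signal is a normalized count per gene, made by the authors with DESeq2, per the labels. The authors' deposited table also gives log2 fold changes and a p-value with its adjusted value. Every value (100% within 1e-06 of a read) was divisible without remainder by the lowest value above 0 in that library, taken as 1 read, and reads and counting SDs rest on that. In 3 libraries that lowest value lay close to 1 and did not meet the criterion used for recovered reads, so the read numbers are inferred and no count model was run.

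Features with a mean of at least 10 were fitted on log2(normalized count + 1) with limma 3.58.1 (R 4.3.3, variance trend, no covariate) and adjusted over all genes by Benjamini-Hochberg. Fold changes on this scale understate those of low genes. The fit was tested on simulated data with the same normal noise for every gene and no differences in tissue content. This checked the code, not what the fit can find in these libraries. Groups came from titles and genotypes, and replicate numbers from titles. Same-numbered libraries did not consistently deviate together (r = −0.51, −0.40 and 0.51 for numbers 1, 2 and 3), and no block was used in the main fit. The highest r was 0.73, between il7 mutant 2 and control 1, the libraries rich in oocyte transcripts. These values therefore cannot settle whether the numbers mark pairs. No libraries were duplicates (smallest chi-square per degree of freedom 90.8).

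The genes and lists were chosen with earlier results of these data known. Beyond the 7, the named genes are the 2 with the smallest p per pathway group and the 2 most similar named genes per gene, besides those marked as chosen after their values were seen and related genes of the same list given beside them. Of these, 1 pathway gene and 1 similar gene are not reported here. List symbols were matched without regard to case, and a paralogue name ending in a or b with no match was matched by its stem. Symbols are written as the gene name table gives them. Alternatives covered the pseudocount, filter, scaling, variance model, weights, block, threshold and libraries left out.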

Additional observations from a re-analysis of the deposited data

How the results depend on the processing

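Under 18 or 19 alternatives per gene, the log2 change ranged from −2.89 to −1.93 for il7, −1.93 to −1.12 for crlf2, −0.75 to −0.32 for il2rga, −0.54 to −0.19 for jak3 and 0.01 to 0.32 for il7r, with no change of sign. The unadjusted limma p ranged from 0.00442 to 0.0243 for il7 and from 0.0107 to 0.123 for crlf2. With single libraries left out, stat5a ranged from −0.83 to 0.043, turning positive without il7 mutant 1, and stat5b from −0.20 to 0.029, turning positive without control 2. Among other genes, JAK1 turned positive with quantile normalization (0.016), rescaling to a common total (0.0072) and without il7 mutant 2 (0.027) or control 2 (0.078), over a leave-one-out range of −0.19 to 0.078. TYK2 turned negative with array quality weights (−0.18) and without il7 mutant 3 (−0.22), over a leave-one-out range of −0.22 to 0.52. The cause was not tested. Limma called 0 genes in every alternative run, against 723 at an unadjusted p under 0.05 with the settings of the report. With a replicate block, il7 was at −2.55 and 0 genes were called. Each replicate number occurs once per group, so the block cannot move a log2 change. The filter, the variance models, a term for the oocyte-rich libraries and the threshold cannot move it either. These alternatives therefore do not test whether the sign is stable. Rescaling to a common total left 2 of the 7 genes with separate groups, il7 and crlf2, a setting chosen after seeing the data. After quantile normalization il7, crlf2 and jak3 had separate groups. The shares of all genes with separate groups are not given for these scalings, so the counts have no background. The filter at a mean of 50 removed il7, crlf2 and bcl2l11. The planned edgeR, DESeq2 and TMM alternatives were not run, since reads could be inferred but did not meet the criterion for recovered reads in 3 libraries. The read numbers of crlf2 and of il7 in mutants limit their precision.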
